A study of Mus musculus with 4 samples.

Results

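The MYC and MAX network is described here through 10 genes: Myc, its paralogue Mycn, their partner Max, the antagonists Mxd1, Mxd3, Mxd4, Mxi1 and Mnt, and the further partners Mga and Mlx. They were chosen by name as members of the network, and all 10 are among the 24421 genes of the deposited tables. MYC is a basic helix-loop-helix leucine zipper transcription factor that binds the E-box CACGTG in DNA as a heterodimer with MAX and activates genes for ribosome production, nucleotide synthesis and cell cycle entry. MAX also pairs with MXD1, MXD3, MXD4, MXI1 and MNT, which recruit SIN3 corepressor complexes to the same motif, and with MGA, which belongs to a variant Polycomb complex, PRC1.6. MLX pairs with several MXD proteins, MNT and the Mondo factors, and so forms a parallel arm of the network. Plasma cells normally shut off Myc as they mature, a step that needs the repressor BLIMP1 (gene Prdm1), and deregulated MYC is a common lesion of multiple myeloma, the malignancy of plasma cells.

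The data are single-cell RNA counts from 4 mouse libraries, each made from cells sorted as positive for CD138 and negative for B220, the surface phenotype of plasma cells. VQ cells carried the V{kappa}*MYC transgene, in which regulatory elements of the kappa light chain drive MYC. They also carried the Nras LSL Q61R/+ allele and IgG1-Cre, a recombinase expressed from the IgG1 locus of switched B cells. The labels give them as donor-derived cells with multiple myeloma, with the word recipient beside the genotype, from VQ-D2 mice. There was 1 VQ lymph node (LN) library and there were 2 VQ bone marrow (BM) libraries, numbered 1 and 2. They were compared with 1 library from wild-type (WT) bone marrow, described in the design as age-matched. All 4 carry the strain label C57/BL6. The labels do not state whether the VQ libraries came from different animals. Nor do the sources used here state whether transcripts of the MYC transgene were counted under Myc, so the Myc values below may hold endogenous and transgene transcripts in an unknown ratio.

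The libraries held 185 cells from VQ LN, 245 and 188 cells from VQ BM 1 and 2, and 163 cells from WT BM, which together make 781 cells and share no cell barcode. A UMI (unique molecular identifier) counts 1 captured transcript. The cells were split at a Jchain share of 5% of UMIs, Jchain being the gene for the chain that joins IgA and IgM into polymers. It took up 20.4% of the UMIs of the WT cells above that threshold and 0.413% of those of the WT cells below it. VQ cells below 5% were compared with WT cells at 5% or more: 185 VQ LN cells with 803752 UMIs, 226 VQ BM 1 cells with 1045005 UMIs, 170 VQ BM 2 cells with 444437 UMIs, and 106 WT cells with 204002 UMIs. The shallow WT sum limits every comparison with WT. Of 12 plasma cell markers, 11 were detected in VQ LN and all 12 in both VQ BM sums and in WT, and the summed markers made up 15568, 16465, 16974 and 228439 CPM (counts relative to the library total) of VQ LN, VQ BM 1, VQ BM 2 and WT, most of the WT level being Jchain. Neutrophil markers held 1 UMI in VQ LN, 1033 and 1286 UMIs in VQ BM 1 and 2, and 13 UMIs in WT. The 6 measured T cell markers held 7 UMIs in VQ LN, 50 and 16 in VQ BM 1 and 2, and 5 in WT. Monocyte markers held 76, 211 and 68 UMIs in VQ LN, VQ BM 1 and VQ BM 2, and 10 in WT, while B cell precursor markers held 1, 20 and 8 UMIs, and 33 in WT. Mature B cell markers held at most 3 UMIs in a VQ sum and 21 in WT, and erythroid markers at most 4 and 0. The part of these cells in the values below was not tested except where a value without them is given.

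The E-box is the motif that this network reads, so the proximal promoters of the genes were searched for it. RefSeq promoter sequences (GRCm38.p6, 250 bases before to 50 bases after each start) were matched for 9 of the 10 genes, Myc having no entry, and gave 11 promoters. The letters CACGTG, which read the same on both strands, were present in 1 promoter each of Max, Mxd4, Mnt and Mlx. Of all 32851 promoters in the table, 2349 (7.15%) held them. The 4 windows of 40 bases, each 5′ to 3′ on the strand of its gene with the E-box in capitals, are those of Max (chr12:76962229-76962268, minus strand), Mxd4 (chr5:34187907-34187946, minus strand), Mnt (chr11:74830784-74830823, plus strand) and Mlx (chr11:101087233-101087272, plus strand).
Max: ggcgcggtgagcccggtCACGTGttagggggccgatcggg
Mxd4: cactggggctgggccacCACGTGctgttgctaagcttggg
Mnt: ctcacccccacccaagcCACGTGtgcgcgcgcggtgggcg
Mlx: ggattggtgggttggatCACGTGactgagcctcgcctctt
The first base of the E-box lay 3 bases upstream of the annotated start in Max, 40 in Mlx, 123 in Mnt and 219 in Mxd4. These matches describe the letters of the windows and show no binding.

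Myc (chromosome 15, 61985391 to 61990374, plus strand, GRCm38) had the largest difference from WT among the 8 network genes tested. It held 1113 UMIs in VQ LN, 1320 and 646 UMIs in VQ BM 1 and 2, and 7 UMIs in WT cells. As CPM after TMM scaling, a correction for library composition, these were 1341 CPM in VQ LN, 1190 and 1390 CPM in VQ BM 1 and 2, and 41.8 CPM in WT. The 3 VQ libraries lay close together and far above WT. VQ BM averaged 1290 ± 142 CPM (SD, n = 2), a pooled fold of 29.9 over WT with a 95% counting interval of 14.5 to 74.4. In edgeR's quasi-likelihood test over 8286 genes, Myc rose in VQ BM (log2 fold change 4.94, SE 0.30, Benjamini-Hochberg adjusted p = 9.62e-56). The residual spread in this test comes from the VQ BM pair alone and may be technical, and WT is assumed to vary like that pair. The prior degrees of freedom were infinite, so this spread was shared over all genes. P-values and SEs therefore measure only the shared spread between those 2 libraries, and a gene's own difference between them had no weight. VQ LN was 32.1-fold above WT (counting interval 15.5 to 80.0), a difference between 1 library and another with no test, at a threshold of 2-fold that 29.6% of the tested genes also passed upward. Both comparisons use the same WT library. Myc did not differ detectably between VQ LN and VQ BM: the ratio was 1.07 with a counting interval of 0.997 to 1.16 (log2 fold change 0.06, SE 0.14, edgeR adjusted p = 0.911).

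**Figure D1:**
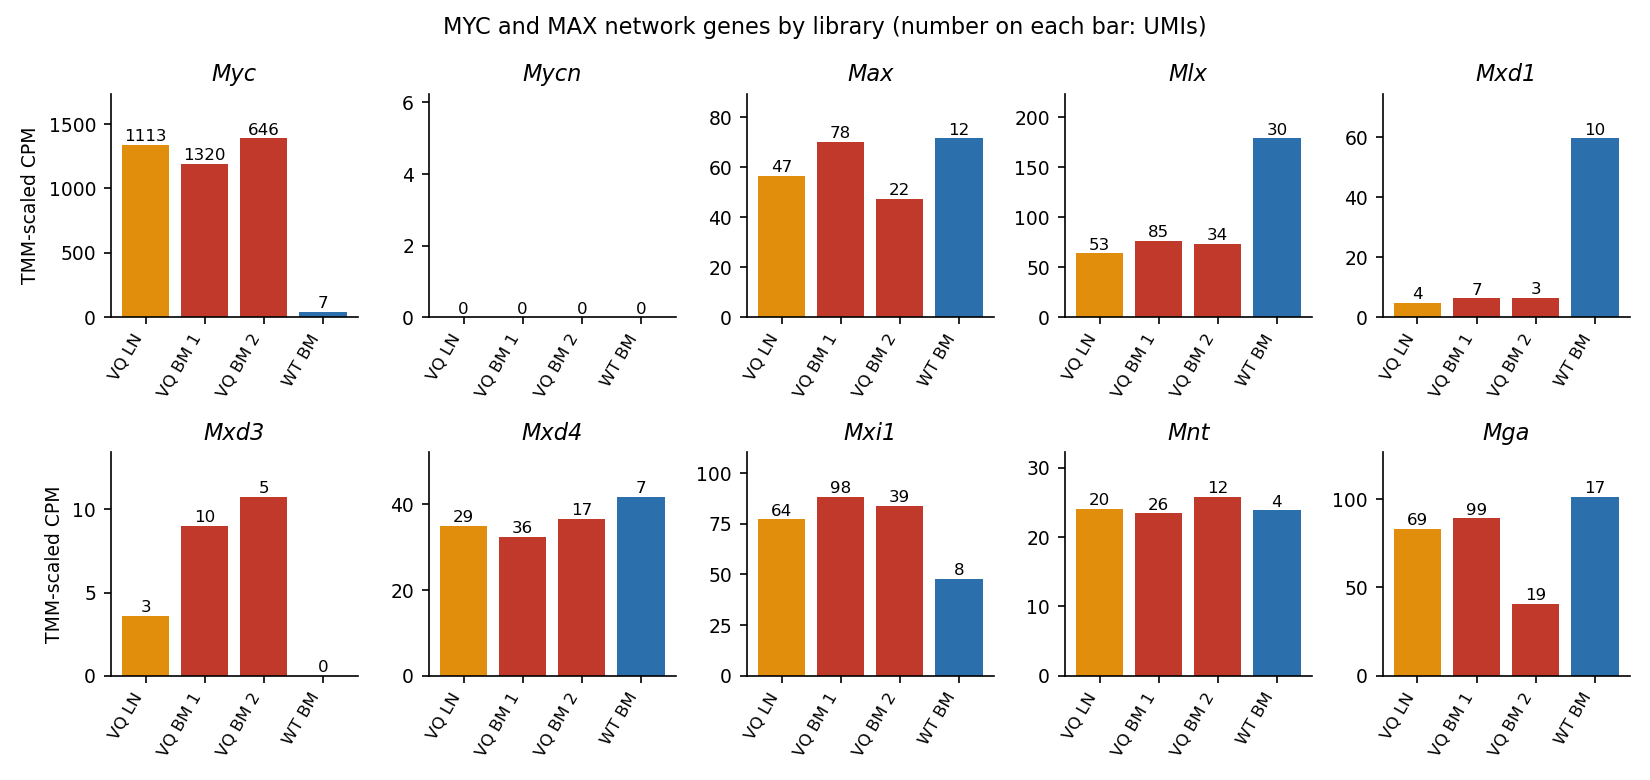
TMM-scaled CPM (vertical axes, each from 0) of the 10 network genes in VQ LN, VQ BM 1, VQ BM 2 and WT BM, with the UMIs printed on each bar. Each bar is 1 library. Myc stands at 1341, 1190 and 1390 CPM in the VQ libraries and 41.8 CPM in WT, Mxd1 and Mlx stand higher in WT, and Mycn has no UMI in any of the 4.

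The size of the Myc difference depended on which WT cells were used. The 57 WT cells with Jchain below 5% held 64 Myc UMIs, 470 CPM of their total, against 34.3 CPM on the same unscaled basis in the WT cells at 5% or more. Of those 64 UMIs, 62 lay in 14 of the 26 cells with at least 3 UMIs of B cell precursor markers (53.8%, exact Clopper-Pearson interval 33.4 to 73.4), whose median depth was 3040 UMIs. The other 31 cells, with a median of 1187 UMIs, held the remaining 2. Set against all 57 cells, in an alternative chosen after seeing the data, VQ BM was higher by a log2 fold change of 1.61 (edgeR adjusted p = 5.47e-15), and with all cells of each library by 2.49. Thinning each cell to 1000 UMIs, which left 1 Myc UMI in WT, gave 6.34. Myc was called higher in VQ BM in all 12 alternatives that gave a test, with log2 fold changes of 1.61 to 6.34 and adjusted p of 4.65e-64 to 5.65e-06.

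Myc was detected in most VQ cells and in few WT plasma cells. With cells thinned to 1000 UMIs and shallower cells left out (14 in VQ LN, 22 and 32 in VQ BM 1 and 2, 19 in WT), a Myc UMI was found in 117 of 171 VQ LN cells (68.4%, exact interval 60.9 to 75.3). It was found in 132 of 204 VQ BM 1 cells (64.7%, 57.7 to 71.3) and 98 VQ BM 2 cells (71.0%, 62.7 to 78.4), against 1 of 87 WT cells (1.15%, 0.0291 to 6.24). The VQ intervals overlap one another and none reaches the WT interval. Without thinning the shares were 89.7% in VQ LN, 83.6% and 79.4% in VQ BM 1 and 2, and 5.66% in WT. The median depth was 3978 UMIs in VQ LN, 4700 and 2646 UMIs in VQ BM 1 and 2, and 1998.5 UMIs in WT. These intervals and the limits on counts of 0 cover counting error only. Among VQ cells that carried markers of other cell types, those with at least 3 UMIs of T cell, neutrophil or B cell precursor markers, Myc was found in 1 of 1 VQ LN cell (547 UMIs deep), 2 of 11 VQ BM 1 cells (18.2%, interval 2.28 to 51.8, median 1014 UMIs) and 0 of 8 VQ BM 2 cells (median 527.5 UMIs, interval up to 36.9%). The T cell-marked cells of VQ BM 1 and 2, 7 and 4 in number, held no Myc UMI, and the 1 such VQ LN cell held 1. Cells with at least 3 UMIs of monocyte or erythroid markers were not part of this set. Of the monocyte-marked cells, 8 of 8 in VQ LN (median 5914 UMIs) and 12 of 19 in VQ BM 1 (median 7354 UMIs) held Myc. In VQ BM 2 it was 0 of 4 (median 1052 UMIs), and the 1 erythroid-marked cell, in VQ BM 1, held no Myc UMI.

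**Figure D2:**
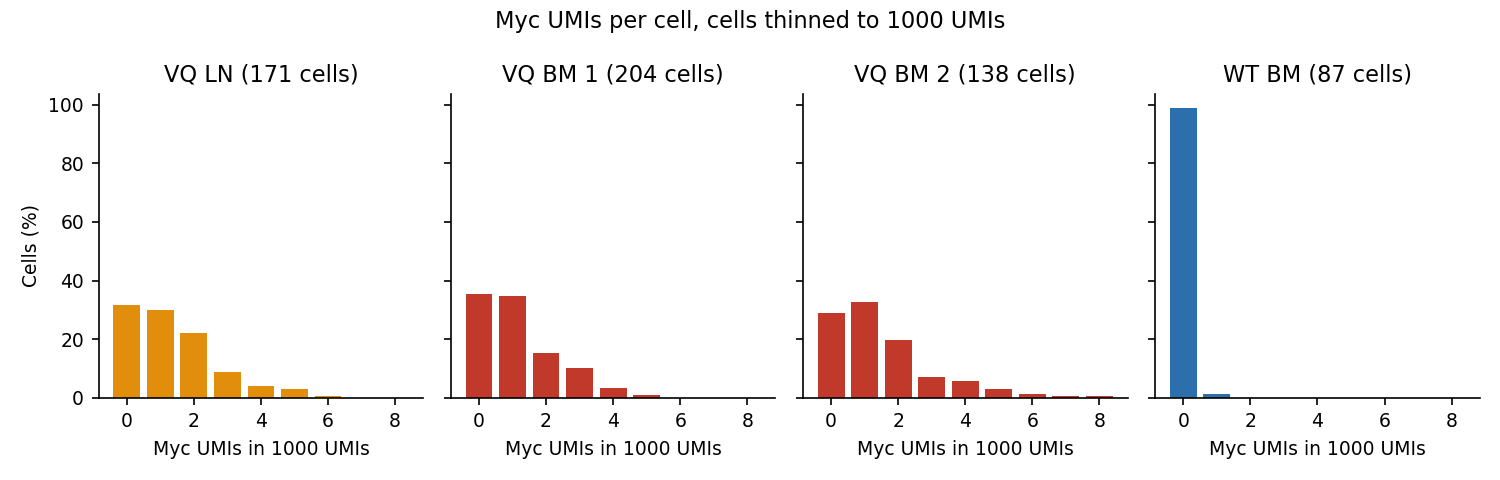
Share of cells (vertical axis, percent) by number of Myc UMIs among 1000 UMIs (horizontal axis) in 171 VQ LN cells, 204 VQ BM 1 cells, the VQ BM 2 cells and 87 WT BM cells, 1 panel per library. VQ cells spread from 0 to 5, 6 or 8 Myc UMIs, while 1 WT cell held 1 Myc UMI and the other WT cells none.

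Among thinned VQ cells, Myc averaged 1.35 UMIs per cell in VQ LN and 1.15 and 1.51 in VQ BM 1 and 2, and its variance was 1.30, 1.19 and 1.66 times the mean. A value of 1 is what counting alone gives, and the observed ratios lay above it in all 3 libraries. Cells with markers of other cell types were not left out here, and the ratios carry no interval or test. VQ cells with no Myc UMI numbered 19 of 185 in VQ LN, 37 of 226 in VQ BM 1 and 35 of 170 in VQ BM 2 before thinning. They were shallow, with medians of 1117, 1005 and 505 UMIs, against 4223.5, 5048 and 3073 UMIs in the cells with Myc, and whether some VQ cells lack Myc transcripts cannot be told at this depth. Mean Myc was slightly lower in cells with proliferation gene UMIs than in the others, in each of the 3 VQ libraries. Cells with UMIs of at least 2 of 30 proliferation genes made up 65.5% of thinned VQ LN cells, 68.1% and 70.3% of VQ BM 1 and 2 cells, and 2.30% of WT cells. They averaged 1.29 Myc UMIs in VQ LN, against 1.47 in the other VQ LN cells. In VQ BM 1 they averaged 1.06, against 1.34 in the other cells, and in VQ BM 2 they averaged 1.47, against 1.59 in the other cells. The median was 1 Myc UMI in both sets of cells of each VQ library. The share of cells with Myc was 67.9% against 69.5% in VQ LN and 62.6% against 69.2% in VQ BM 1. In VQ BM 2 it went the other way, 72.2% against 68.3%. The cells of a library are not replicates, so these means and shares carry no test.

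Mycn (chromosome 12, 12936093 to 12941914), the paralogue used by embryonic and neural cells, was not detected in any of the 4 sums. A count of 0 allows up to 3.62 CPM in VQ LN, 1.91 CPM in VQ BM and 17.9 CPM in WT. The 2 Mycn UMIs of the series lay in 1 precursor-marked WT cell with Jchain below 5%.

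Of the 10 genes, 8 passed the filter on low counts, and Mycn and Mxd3 did not. Between VQ BM and WT, 1 of the 8 rose (Myc) and 2 fell (Mxd1 and Mlx), while 29.9% of all tested genes were called, 17.1% higher and 12.8% lower, so the number of calls is close to the background and says nothing particular about the network. Between VQ LN and VQ BM, none of the 8 was called in edgeR, against 3.13% of all tested genes (1.86% higher and 1.27% lower). The lowest unadjusted p among them was 0.370, for Mlx, so 0 of 8 passed even an unadjusted p under 0.05. DESeq2 called 0 of the 5 for which it gave an adjusted p, against 23 of 3788 genes with one (0.607%). The median gene shifted by 0.20 on the log2 scale between VQ BM and WT, and by 0.56 when library totals replaced TMM scaling, so the smaller fold changes below are best read against that shift.

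**Figure D3:**
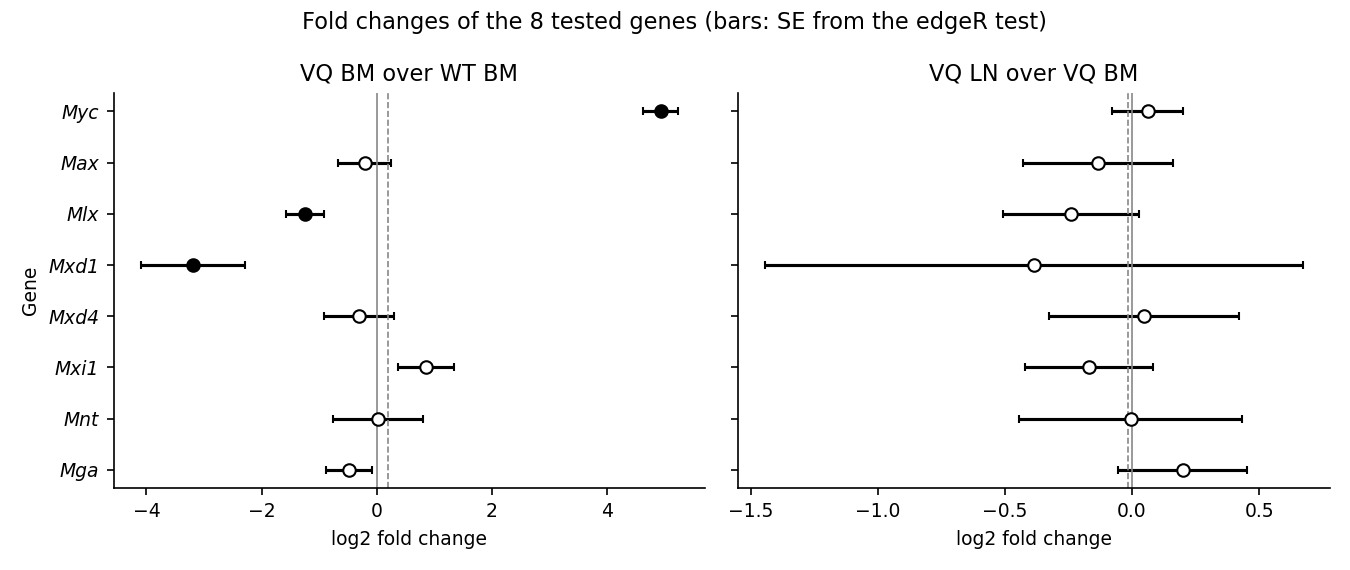
Log2 fold changes (horizontal axes) of the 8 tested genes for VQ BM over WT BM and for VQ LN over VQ BM, with bars for the SE and filled points for adjusted p under 0.05. The dashed lines mark the median of all tested genes, 0.20 and -0.02. Myc lies at 4.94, Mxd1 at -3.19 and Mlx at -1.25 in the VQ BM over WT BM panel, and no point is filled in the other panel.

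Max (chromosome 12, 76937269 to 76962201, minus strand), the obligate partner of MYC, showed no called difference. It held 47 UMIs (56.6 CPM) in VQ LN, 78 and 22 UMIs (70.3 and 47.3 CPM) in VQ BM 1 and 2, and 12 UMIs (71.6 CPM) in WT. The WT value lay just above the 3 VQ values. VQ BM over WT was 0.887-fold, with a counting interval of 0.486 to 1.77 (log2 fold change -0.20, SE 0.46, edgeR adjusted p = 0.778), so a change of 2-fold lower could not be told from none. The difference of VQ LN from VQ BM was -0.13 in log2 fold change (SE 0.30, edgeR adjusted p = 0.905). Before thinning, Max was found in 59 of the 189 VQ BM 1 cells with Myc and in 2 of the 37 without it. It was found in 16 of 135 VQ BM 2 cells with Myc and 2 of 35 without it. In VQ LN it was 35 of 166 and 2 of 19. The cells with and without Myc differ in depth as given above.

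Mxd1 (chromosome 6, 86647042 to 86669161, minus strand), a MAX partner that appears as cells stop dividing and differentiate, was the antagonist that fell. It held 4 UMIs (4.82 CPM) in VQ LN, 7 and 3 UMIs (6.31 and 6.46 CPM) in VQ BM 1 and 2, and 10 UMIs (59.7 CPM) in WT. All 3 VQ libraries lay far below WT, on few UMIs. VQ BM was 9.40-fold below WT, with a counting interval of 3.51 to 25.2 (log2 fold change -3.19, SE 0.91, edgeR adjusted p = 0.00286). VQ LN was 12.4-fold below WT (interval 3.57 to 54.1, no test, 19.0% of tested genes being at least 2-fold lower in this comparison). Before thinning, Mxd1 was found in 4 of 185 VQ LN, 7 of 226 VQ BM 1 and 3 of 170 VQ BM 2 cells (2.16%, 3.10% and 1.76%), against 10 of 106 WT cells (9.43%), although the VQ cells were deeper. In cells thinned to 1000 UMIs it was found in 1, 1 and 2 VQ cells (0.585%, 0.490% and 1.45%), against 4 WT cells (4.60%). The call did not hold against the WT cells with Jchain below 5%, in which Mxd1 held 3 UMIs (log2 fold change -1.61, edgeR adjusted p = 0.423), and DESeq2 gave no adjusted p for this gene.

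Mxi1 (chromosome 19, 53310518 to 53375810, plus strand), an antagonist also known as MXD2, lay higher in the VQ libraries without passing the test. It held 64 UMIs (77.1 CPM) in VQ LN, 98 and 39 UMIs (88.3 and 83.9 CPM) in VQ BM 1 and 2, and 8 UMIs (47.8 CPM) in WT. Each VQ library lay above WT, and VQ BM averaged 86.1 ± 3.11 CPM (SD, n = 2). The ratio of VQ BM to WT was 1.82 with a counting interval of 0.899 to 4.31 and was not called (log2 fold change 0.86, SE 0.48, edgeR adjusted p = 0.171). It was called when library totals replaced TMM scaling (1.22, adjusted p = 0.0288), with all cells (1.45, adjusted p = 0.0155) and against WT cells with Jchain below 5% (2.70, adjusted p = 0.00168). VQ LN differed from VQ BM by -0.17 in log2 fold change (SE 0.25, edgeR adjusted p = 0.865).

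Mxd4 and Mnt, antagonists known for broad expression, showed no called difference. Mxd4 (chromosome 5, 34173883 to 34187720, minus strand) held 29 UMIs (34.9 CPM) in VQ LN, 36 and 17 UMIs (32.4 and 36.6 CPM) in VQ BM 1 and 2, and 7 UMIs (41.8 CPM) in WT, -0.30 in log2 fold change between VQ BM and WT (SE 0.61, edgeR adjusted p = 0.748). Mnt (chromosome 11, 74830920 to 74845725, plus strand) held 20 UMIs (24.1 CPM) in VQ LN, 26 and 12 UMIs (23.4 and 25.8 CPM) in VQ BM 1 and 2, and 4 UMIs (23.9 CPM) in WT, 0.02 in log2 fold change (SE 0.78, edgeR adjusted p = 0.989). The counting intervals of the VQ BM to WT ratios ran from 0.365 to 2.10 for Mxd4 and from 0.364 to 3.90 for Mnt, so changes of 2-fold would not be detectable at this depth. Between VQ LN and VQ BM, Mxd4 differed by 0.05 (SE 0.37) and Mnt by -0.01 (SE 0.44) on the log2 scale, neither called by edgeR.

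Mxd3 (chromosome 13, 55325168 to 55329823, minus strand), a MXD gene linked to cells in S phase, had few UMIs, at a level that the WT depth cannot compare. It held 3 UMIs (3.62 CPM) in VQ LN, 10 and 5 UMIs (9.01 and 10.8 CPM) in VQ BM 1 and 2, and 0 UMIs in WT, where a count of 0 allows up to 17.9 CPM. In the WT cells with Jchain below 5% it held 2 UMIs. The locus overlaps Prelid1 on the other strand, and whether strand was used in counting is not given in the sources used here.

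Mxd1 took a smaller share of the antagonist UMIs in the VQ libraries than in the WT cells at or above the Jchain threshold. The sum of Mxd1, Mxd3, Mxd4, Mxi1 and Mnt did not differ beyond its counting interval. Together they held 120 UMIs (145 CPM) in VQ LN, 177 and 76 UMIs (160 and 164 CPM) in VQ BM 1 and 2, and 29 UMIs (173 CPM) in WT. The ratio of VQ BM to WT was 0.928 with a counting interval of 0.631 to 1.41, and that of VQ LN to VQ BM was 0.900 (0.718 to 1.12). Mxi1 made up 53.3% of this sum in VQ LN (exact interval 44.0 to 62.5), 55.4% and 51.3% in VQ BM 1 and 2 (47.7 to 62.8 and 39.6 to 63.0), and 27.6% in WT (12.7 to 47.2). Mxd1 made up 3.33% in VQ LN (0.916 to 8.31), 3.95% in each of VQ BM 1 and 2 (up to 7.98 and 11.1), and 34.5% in WT (17.9 to 54.3). The VQ intervals for Mxd1 lay below the WT interval, while those for Mxi1 in VQ BM 2 and VQ LN overlapped it. The shares of Mxd4 were 24.2% in VQ LN, 20.3% and 22.4% in VQ BM 1 and 2, and 24.1% in WT, and those of Mnt were 16.7%, 14.7% and 15.8%, and 13.8% in WT.

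**Figure D4:**
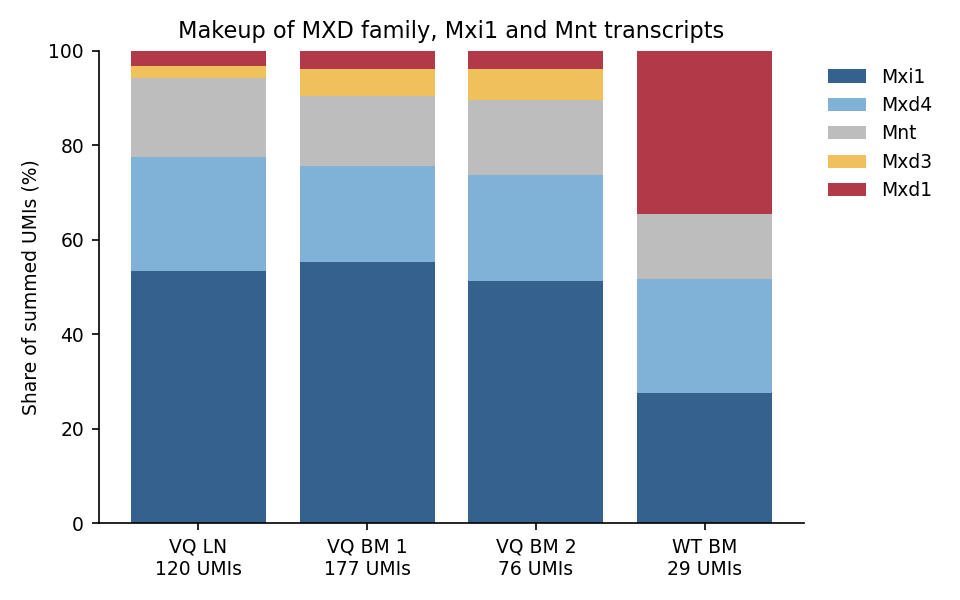
Share (vertical axis, percent) of each gene in the summed UMIs of Mxi1, Mxd4, Mnt, Mxd3 and Mxd1 in VQ LN, VQ BM 1, VQ BM 2 and WT BM, with the summed UMIs under each bar. Mxi1 makes up 51.3% to 55.4% of the sum in the VQ libraries and 27.6% in WT, and Mxd1 3.33% to 3.95% and 34.5%.

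Mga (chromosome 2, 119897228 to 119969581, plus strand), a large MAX partner that represses genes within PRC1.6, varied between the VQ BM pair as much as between groups. It held 69 UMIs (83.1 CPM) in VQ LN, 99 and 19 UMIs (89.2 and 40.9 CPM) in VQ BM 1 and 2, and 17 UMIs (101 CPM) in WT. VQ BM 2 was the low library, and the other 3 lay close together. VQ BM averaged 65.1 ± 34.2 CPM (SD, n = 2), and its difference from WT was -0.49 in log2 fold change (SE 0.40, edgeR adjusted p = 0.369). VQ LN differed from VQ BM by 0.20 (SE 0.25, edgeR adjusted p = 0.839). With VQ BM 2 left out, the VQ BM to WT value was -0.19 and the VQ LN to VQ BM value -0.10, and with VQ BM 1 left out they were -1.31 and 1.02, with no test.

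Mlx (chromosome 11, 101087277 to 101092207, plus strand), the MAX-like partner of the Mondo factors, fell in VQ BM. It held 53 UMIs (63.9 CPM) in VQ LN, 85 and 34 UMIs (76.6 and 73.2 CPM) in VQ BM 1 and 2, and 30 UMIs (179 CPM) in WT. The 3 VQ libraries lay together below WT. VQ BM was 2.37-fold below WT, with a counting interval of 1.53 to 3.56 (log2 fold change -1.25, SE 0.33, edgeR adjusted p = 0.00136), and VQ LN was 2.80-fold below WT (1.73 to 4.47, no test). Between VQ LN and VQ BM, Mlx differed by -0.24 on the log2 scale (SE 0.27, edgeR adjusted p = 0.805). The call against WT was lost in 5 of 12 alternatives, over which the adjusted p ranged from 0.00200 to 0.935. They were DESeq2 (-1.33, adjusted p = 0.212), all cells (-0.76, adjusted p = 0.0506), thinned cells (-1.13, adjusted p = 0.139), VQ and WT cells with fewer than 2 proliferation genes before thinning (-1.51, adjusted p = 0.116), and the WT cells with Jchain below 5% (-0.07, adjusted p = 0.935). The Mlx locus overlaps Psmc3ip on the other strand, and Psmc3ip went the opposite way (49.4 CPM in VQ LN, 73.9 and 73.2 CPM in VQ BM 1 and 2, 5.97 CPM in WT). Without a stated use of strand in counting, reads of the pair cannot be told apart.

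The genes whose profile was most like that of Myc over the 4 sums and the WT cells with Jchain below 5% were Spc24, Pprc1, Dctpp1, Ltbr and Slc29a1. Likeness was the root mean square difference of centred log2 CPM over these 5 sums, and was 0.05 for Spc24, 0.16 for Pprc1, 0.19 for Dctpp1, 0.22 for Ltbr and 0.24 for Slc29a1. In the WT cells with Jchain of 5% or more, Dctpp1 held 1 UMI and the other 4 genes none, so their likeness rests on a WT level at the limit of detection.

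Genes that MYC is known to induce rose together in VQ BM. Of 32 listed, 30 were tested, 25 rose and none fell, while 17.1% of all tested genes were called higher, and the median log2 fold change was 1.65 against 0.20 for all genes. Tfrc, the transferrin receptor, held 266 and 217 CPM in VQ BM 1 and 2, against 11.9 CPM in WT (log2 fold change 4.34, SE 0.56, edgeR adjusted p = 2.84e-13). Apex1, a base excision repair endonuclease, held 192 and 166 CPM in VQ BM 1 and 2, against 11.9 CPM in WT (3.91, SE 0.59, adjusted p = 1.53e-09). Pa2g4, a growth-regulated ribosome-associated protein, held 307 and 299 CPM in VQ BM 1 and 2, against 35.8 CPM in WT (3.08, SE 0.41, adjusted p = 3.70e-12). Shmt1, an enzyme of one-carbon metabolism, held 123 and 110 CPM in VQ BM 1 and 2 and no UMI in WT, and was at least 6.67-fold higher against a floor of 3 UMIs in the WT library (adjusted p = 1.72e-08). Proliferation genes moved in the same direction: 26 of 30 rose and none fell, and the median log2 fold change was 5.90 (2.82 with the 15 genes at 0 in WT counted at their bound). Among them Ccna2, Ube2c, Cdk1 and Birc5 were at least 17.3-fold, 10.9-fold, 7.80-fold and 7.38-fold higher. When cells with at least 2 proliferation genes were left out, 17 of 29 MYC-induced genes rose, against 24.1% of all genes called either way. In that setting 11 of 18 proliferation genes still rose, with a median of 5.85, so it did not remove the proliferation difference. With those cells left out before thinning, 8 of 22 MYC-induced genes rose, against 14.7% of all genes called either way. With the WT cells with Jchain below 5% as the reference, 13 of 30 MYC-induced genes rose and 2 fell, against 25.1% called either way. Against those WT cells Tfrc (-0.17, edgeR adjusted p = 0.673), Apex1 (0.54, adjusted p = 0.237) and Pa2g4 (0.67, adjusted p = 0.0576) were not called. Of the 30 proliferation genes 4 rose and 2 fell against them, with a median of 0.0025, and with all cells of each library 10 of 30 rose, with a median of 0.92. DESeq2 called 13 of 27 MYC-induced genes higher, against 12.6% called either way among all genes with an adjusted p.

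Of 9 genes that MYC represses with MIZ1, 5 were tested, 3 fell and none rose, while 12.8% of all tested genes were called lower, and the median log2 fold change was -1.07 (-1.50 with 1 gene counted at its bound). Bcl2, the survival factor, held 6.31 and 4.30 CPM in VQ BM 1 and 2, against 155 CPM in WT (log2 fold change -4.72, SE 0.62, edgeR adjusted p = 1.46e-12). Gadd45b, a stress response gene, held 24.3 and 30.1 CPM in VQ BM 1 and 2, against 161 CPM in WT (-2.61, SE 0.41, adjusted p = 7.99e-09). Cdkn1b, the cell cycle inhibitor p27, held 64.0 and 51.6 CPM in VQ BM 1 and 2, against 125 CPM in WT (-1.07, SE 0.39, adjusted p = 0.0243). The other 2 were not called: Cdkn1a differed by -0.13 (adjusted p = 0.926), and Ndrg2 held 6.31 and 6.46 CPM in VQ BM 1 and 2 and no UMI in WT (adjusted p = 0.402). The count was 1 of 2 with DESeq2 and 2 of 8 without the filter on low counts, against 12.6% and 19.3% of all genes called either way. It was 2 of 5 against the WT cells with Jchain below 5%, where 25.1% of all genes were called. In cells under 2 proliferation genes before thinning it was 0 of 3, against 14.7%. Cdkn1b lost its call in 8 of 12 alternatives, its sign turning in cells under 2 proliferation genes before thinning (0.26, edgeR adjusted p = 0.829). Against the WT cells with Jchain below 5%, neither Gadd45b (-0.33, adjusted p = 0.782) nor Cdkn1b (-0.63, adjusted p = 0.316) was called. Of the 3 genes that fell, only Bcl2 was called there (-4.87, adjusted p = 3.35e-13), so the other call there lay outside these 3.

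Of 7 regulators of Myc transcription, 5 were tested, 1 rose and 2 fell, with a median of -0.65, while 29.9% of all tested genes were called. Prdm1, whose product BLIMP1 represses Myc in plasma cells, held 63.1 and 43.0 CPM in VQ BM 1 and 2, against 436 CPM in WT (log2 fold change -2.95, SE 0.27, edgeR adjusted p = 2.73e-26). Irf4, a plasma cell factor that binds Myc in human myeloma cells, held 355 and 391.7 CPM in VQ BM 1 and 2, against 675 CPM in WT (-0.86, SE 0.20, adjusted p = 0.000136). E2f1, a cell cycle factor, held 57.7 and 66.7 CPM in VQ BM 1 and 2, against 17.9 CPM in WT (1.75, SE 0.69, adjusted p = 0.0395). Prdm1 and Irf4 are also plasma cell markers, and the WT cells were chosen for Jchain, another one. Against the WT cells with Jchain below 5%, Prdm1 was not called (-0.08, edgeR adjusted p = 0.934) and Irf4 was called higher in VQ BM (1.90, adjusted p = 5.11e-08), so the direction of Irf4 depended on which WT cells were used. The call of E2f1 was lost with DESeq2 (adjusted p = 0.401) and at a Jchain threshold of 10% (edgeR adjusted p = 0.0964). It was also lost in thinned cells (0.409), in cells under 2 proliferation genes (0.390) and without cells with other markers (0.0516). Irf4 lost its call with DESeq2 (adjusted p = 0.0754), with all cells (-0.11, edgeR adjusted p = 0.673) and in cells under 2 proliferation genes (edgeR adjusted p = 0.146).

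Of 14 genes for proteins that modify or turn over MYC, 12 were tested, 5 rose and 1 fell, against 17.1% higher and 12.8% lower among all tested genes, and the median log2 fold change was 0.59 (0.49 with the 3 genes at 0 in WT counted at their bound). C330027C09Rik, the table's name for Cip2a, an inhibitor of the phosphatase that destabilises MYC, held 78.4 and 60.3 CPM in VQ BM 1 and 2, against 5.97 CPM in WT (log2 fold change 3.55, SE 0.88, edgeR adjusted p = 0.000457). The ubiquitin ligase subunit Skp2 and the mitotic kinases Plk1 and Aurka had no UMI in WT and were at least 2.87-fold, 2.06-fold and 1.31-fold higher. The gene that fell, named after its values were seen, was Fbxw7, the ligase subunit that marks MYC for destruction, at 119 and 118 CPM in VQ BM 1 and 2, against 287 CPM in WT (-1.27, adjusted p = 4.41e-05). Plk1 and Aurka also belong to the proliferation list. DESeq2 called none of the 7 genes of this list for which it gave an adjusted p, and none of the 12 was called against the WT cells with Jchain below 5%. With all cells Skp2, Plk1 and Aurka lost their calls (edgeR adjusted p = 0.0581, 0.137 and 0.262). Aurka was also lost at a Jchain threshold of 10% (0.0705) and without cells with other markers (0.0893). In thinned cells Skp2 (0.147) and C330027C09Rik (0.154) were not called, nor was C330027C09Rik in cells under 2 proliferation genes (0.109).

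The counts for the cofactors of both arms lay near or below the 29.9% of all tested genes called, and say nothing particular about these lists. Among 14 coactivators, 13 were tested, 2 rose and 1 fell, and the median log2 fold change was 0.69 (0.07 with 1 gene counted at its bound). Kat2a, the GCN5 acetyltransferase, held 72.1 and 86.1 CPM in VQ BM 1 and 2, against 23.9 CPM in WT (log2 fold change 1.68, SE 0.60, edgeR adjusted p = 0.0230). Wdr5, which helps MYC bind chromatin, held 117 and 161 CPM in VQ BM 1 and 2, against 47.8 CPM in WT (1.48, SE 0.44, adjusted p = 0.00587). Bptf, a chromatin remodelling subunit, held 44.2 and 28.0 CPM in VQ BM 1 and 2, against 173 CPM in WT (-2.16, SE 0.38, adjusted p = 3.28e-07). Of 18 SIN3 and NCOR corepressor genes, 16 were tested, with a median of 0.08. Here the deacetylase gene Hdac2 rose (121 and 129 CPM in VQ BM 1 and 2, against 41.8 CPM in WT, log2 fold change 1.56) and the SIN3 subunit gene Ing1 fell (42.4 and 40.9 CPM in VQ BM 1 and 2, against 143 CPM in WT, -1.77). The edgeR adjusted p was 0.00462 for Hdac2 and 0.000102 for Ing1. Of 9 genes of the PRC1.6 complex that holds MGA, 8 were tested and 2 rose, and the median log2 fold change was 0.49 (-0.0041 with 2 genes counted at their bound). E2f6 held 61.3 and 58.1 CPM in VQ BM 1 and 2, against 11.9 CPM in WT (log2 fold change 2.31, SE 0.77, edgeR adjusted p = 0.0128). Its dimerisation partner Tfdp1 held 142 and 157 CPM in VQ BM 1 and 2 and no UMI in WT, at least 8.16-fold higher (adjusted p = 2.78e-10). Of the genes named here, only Bptf was called against the WT cells with Jchain below 5%. DESeq2 did not call Kat2a, Wdr5, Hdac2 or Ing1, and gave E2f6 no adjusted p. Kat2a, Wdr5, Hdac2 and E2f6 also lost their edgeR calls in thinned cells (adjusted p = 0.190, 0.204, 0.448 and 0.369). The same 4 lost them in cells under 2 proliferation genes (0.164, 0.217, 0.155 and 0.431). Without cells with other markers Kat2a (0.0636) and Wdr5 (0.0528) were not called, nor with all cells Kat2a (0.0755) and Hdac2 (0.239). Kat2a was also lost at a Jchain threshold of 2% (0.0715). Of the 4 other network genes, Mycl, Mlxip, Mlxipl and Zbtb17, 2 were tested and neither was called by edgeR, with a median of -0.09.

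Between VQ LN and VQ BM none of the 118 tested genes of these lists was called by edgeR, against 3.13% of all tested genes. An unadjusted p under 0.05 was found for 9 of them, a count with no share over all genes beside it. DESeq2 called 0 of the 75 for which it gave an adjusted p, against 0.607% of all genes with one. Among the alternatives, 1 of 3 MYC and MIZ1 targets was called higher in cells under 2 proliferation genes, against 1.17% of all genes called either way. With library totals, with or without Jchain, 1 of 30 proliferation genes was called lower, against 3.03% and 3.02% of all genes called either way. The medians were 0.16 for MYC-induced genes, 0.34 for MYC and MIZ1 targets, -0.07 for regulators of Myc transcription, 0.01 for MYC turnover and 0.03 for coactivators. They were -0.09 for corepressors, -0.01 for PRC1.6, 0.60 for the other network genes and -0.13 for proliferation genes, against -0.02 for all tested genes.

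**Figure D5:**
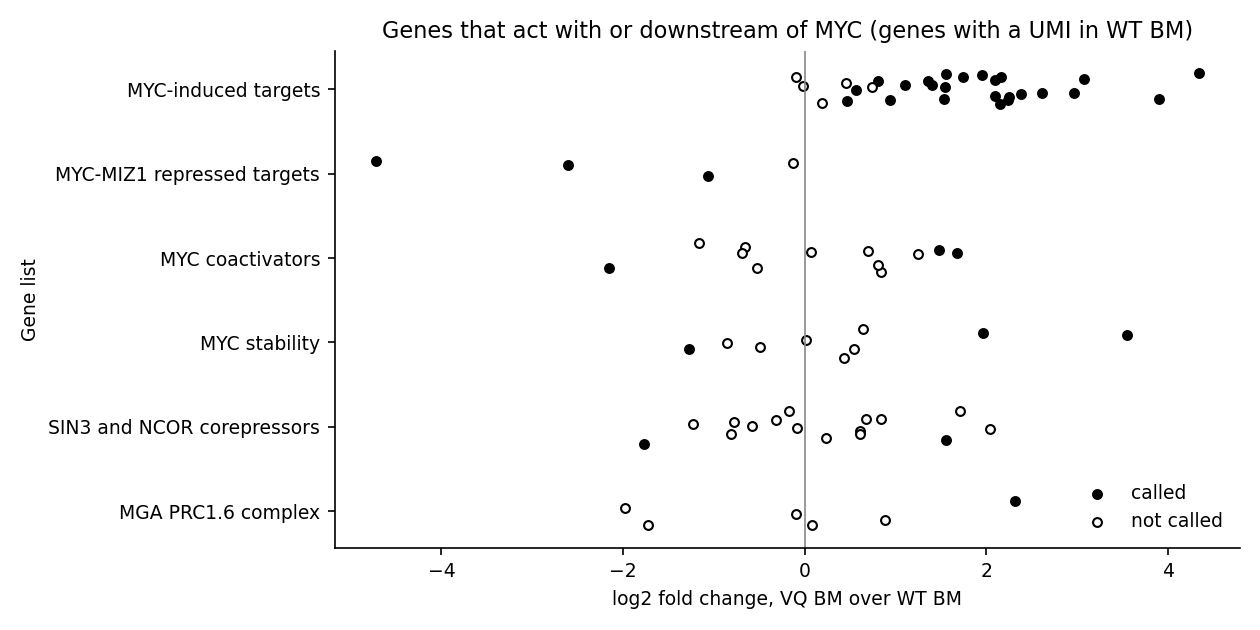
Log2 fold change of VQ BM over WT BM (horizontal axis) for the tested genes of 6 lists that have at least 1 UMI in WT, with filled points for edgeR adjusted p under 0.05. Called MYC-induced genes all lie above 0 and the 3 called MYC and MIZ1 targets below 0, while the cofactor lists hold mostly open points on both sides.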

How the data were processed

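Per the labels' protocols, single cells were isolated on the Bio-Rad ddSEQ instrument, and 3′ libraries were made from polyA RNA with the Illumina SureCell kit. The authors deposited raw UMI counts per gene and cell, without normalization, for barcodes past their knee filter. The build is mm10 per the submitters' processing notes, and the aligner and counter are not given in the sources used here. UMIs of the chosen cells were summed per library and tested with edgeR 4.0.16 in R 4.3.3 (TMM, filterByExpr, quasi-likelihood test, 3 group means in 1 fit of 4 sums, 1 residual degree of freedom, Benjamini-Hochberg adjusted p under 0.05). The prior degrees of freedom were infinite, so the spread was shared over all genes. The SE is the absolute log2 fold change over the square root of F. The VQ BM pair differed beyond counting noise (a ratio of chi-square to its degrees of freedom of 1.57 across 9021 genes). No batch is labelled, so library and group cannot be told apart for WT and VQ LN. No doublet caller was run; cells with UMIs of other cell types were left out as an alternative. The script was tested on simulated data. Alternatives were DESeq2 1.42.0, library totals with and without Jchain, no low-count filter, all cells, Jchain thresholds of 2% and 10%, cells without other markers, cells under 2 proliferation genes, thinning to 1000 or 500 UMIs, and each VQ BM library left out. WT cells with Jchain under 5% as reference, and cells under 2 proliferation genes before thinning, were chosen after seeing the data. All 10 genes are described; from each list the 4 called genes with the largest fold change were named, and the 5 genes nearest Myc. The genes, lists and rules were chosen with earlier results of these data known. Gene coordinates are from GENCODE vM21 (GRCm38), promoters from RefSeq. CPM given as TMM-scaled are relative to effective library sizes; Python 3.11.15 was used for the rest.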

Additional observations from a re-analysis of the deposited data

How the results depend on the processing

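Myc was called higher in VQ BM than in WT in all 12 alternatives with a test, and between VQ LN and VQ BM in none of 10. Without either VQ BM library (no test) the value was 4.83 to 5.05 for VQ BM over WT and -0.05 to 0.17 for VQ LN over VQ BM, whose sign turned without replicate 1. No paired analysis was possible, because the labels do not state which libraries share an animal, and VQ LN and WT have 1 library each. Genes called between VQ BM and WT numbered 2478 in the reported fit, 499 with DESeq2, 1334 in cells under 2 proliferation genes, 966 in thinned cells and 337 in cells under 2 proliferation genes before thinning. With library totals 2141 were higher and 713 lower (75.0% higher), against 1420 and 1058 (57.3%), and 41.8% of the 337 were higher. Between VQ LN and VQ BM they numbered 259 in the reported fit, 23 with DESeq2, 107 with all cells, 161 at a Jchain threshold of 2%, 69 without cells with other markers (78.3% higher, against 59.5%), 65 in cells under 2 proliferation genes (49.2% higher) and 67 in thinned cells. The share of cells with Myc followed depth: unthinned 89.7% in VQ LN and 83.6% and 79.4% in VQ BM 1 and 2, and at 500 UMIs 43.2%, 38.0% and 51.7%. Signs also turned in network genes that were not called. Over WT, these were Max with library totals (0.16), Mxd4 with library totals (0.058), all cells (0.065), a threshold of 10% (0.30), cells under 2 proliferation genes (0.24) and WT cells with Jchain under 5% (0.77), Mnt with all cells (-0.19), a threshold of 10% (-0.18), cells without other markers (-0.033) and WT cells with Jchain under 5% (-0.44), and Mga in thinned cells (0.26). Over VQ BM, they were Max (0.59), Mxd4 (-0.036), Mga (-0.50) and Mlx (0.037) in cells under 2 proliferation genes, Mnt without other markers (0.073) and Mga in thinned cells (-0.24). Without a VQ BM library (no test), signs also turned for Mnt over WT without replicate 2 (-0.027), and over VQ BM for Max (0.26) and Mxd4 (-0.066) without replicate 1 and for Mnt (0.040) and Mga (-0.10) without replicate 2. The cause was not tested. Mxd3 and Mycn gave no tested value in most settings. The WT sum of 204002 UMIs limits all comparisons with WT.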

Other observations

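VQ BM also held cells with Jchain at 5% or more, 19 in library 1 and 18 in library 2, which entered no comparison above. Myc held 4 UMIs in 4 of the 19 (21.1%, exact interval 6.05 to 45.6, median 1064 UMIs per cell) and 0 in the 18 (a count of 0 allows a share of up to 16.7%, median 699.5 UMIs). VQ LN had no cell at or above the threshold.

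Cells with at least 3 UMIs of monocyte markers held Myc in 8 of 8 cells in VQ LN (64 UMIs, median depth 5914 UMIs), 12 of 19 cells in VQ BM 1 (98 UMIs, median 7354 UMIs) and 0 of 4 cells in VQ BM 2 (median 1052 UMIs). In the WT library 5 such cells, all with Jchain below 5%, held no Myc UMI (median 1745 UMIs). Of the 6 monocyte markers, 5 had no UMI in VQ LN, so the 76 marker UMIs there came from a single gene. In VQ BM 1 and in VQ BM 2, 2 of the 6 had no UMI. Whether the marked cells are monocytes was not tested.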
